A study of Mus musculus with 12 samples.

Results

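The insulin-like growth factor (IGF) genes of mouse mesenchymal stem cells (MSCs) were read for H3K27ac and H3K4me3 under low and high oxygen. The 10 genes were the ligands Igf1 and Igf2, the receptors Igf1r and Igf2r, the binding proteins Igfbp2, Igfbp3, Igfbp4, Igfbp5 and Igfbp7, and the docking protein Irs2, out of 21938 protein-coding genes in the annotation. They were listed by name, and each locus was the gene body with 20000 bp on either side. All peaks of the 4 deposited lists that overlapped such a window were taken. The MSCs came from the bones of the hind limbs of C57BL/6N mice aged 3 to 5 months, were purified by flow cytometry on day 12 and were compared at 2% oxygen (hypoxia) and 21% oxygen (normoxia) in α-MEM medium. The labels give the culture at either oxygen level before the sort, while the study's methods describe outgrowth of all cells at 2% oxygen, then the sort, and then a week at either level. The sort kept cells that lacked CD45 and Ter-119, which mark blood cells, and carried Sca-1 and CD140a, which mark mesenchymal progenitors. No gene was altered and no drug was given, so the groups differ in oxygen alone as far as the labels say. The 12 libraries formed 6 groups of 2, H3K27ac, H3K4me3 and input chromatin at each oxygen level, and each mark at each oxygen level was deposited as a single peak list made from both libraries.

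IGF1 and IGF2 are secreted growth factors that are stored in bone matrix and promote the growth and survival of osteoblasts and their precursors. Both signal through IGF1R, a receptor tyrosine kinase that passes the signal to IRS proteins and on to PI3K and AKT, while IGF2R takes up IGF2 for degradation. The IGF binding proteins hold the ligands in tissue and blood and set how much reaches the receptor. H3K4me3 (trimethylation of lysine 4 of histone H3) lies mainly at transcription starts, and H3K27ac (acetylation of lysine 27) lies at active promoters and enhancers.

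Each of the 10 genes carried H3K4me3 at a transcription start, 5 of them carried H3K27ac there as well, and no segment of either mark at these loci was called at a single oxygen level. Over all protein-coding genes, 58.9% had H3K4me3 and 37.6% had H3K27ac at a start. Calls at a single oxygen level were rare in the genome too, with 3.87% of hypoxia and 1.47% of normoxia H3K27ac peaks. For H3K4me3 these shares were 0.0411% and 0.0205%. The sequences just upstream of 6 starts are shown first, because they cover the kinds of start found here: Igf1r, Irs2 and Igfbp7 held both marks at the start, Igf2r and Igfbp3 held H3K4me3 without H3K27ac, and the distal start of Igf2 held neither mark. Each is the 250 bases before the RefSeq start on the strand of the gene, from the GRCm38.p6 assembly (mm10). Capitals mark the core letters of the hypoxia response element, ACGTG or GCGTG, on either strand, with overlapping matches counted as 1 place. The positions are chr7:67952007-67952256 on the plus strand for Igf1r, and on the minus strand chr8:11008930-11009179 for Irs2, chr5:77408046-77408295 for Igfbp7, chr17:12769707-12769956 for Igf2r, chr11:7213924-7214173 for Igfbp3 and chr7:142666817-142667066 for Igf2.
Igf1r: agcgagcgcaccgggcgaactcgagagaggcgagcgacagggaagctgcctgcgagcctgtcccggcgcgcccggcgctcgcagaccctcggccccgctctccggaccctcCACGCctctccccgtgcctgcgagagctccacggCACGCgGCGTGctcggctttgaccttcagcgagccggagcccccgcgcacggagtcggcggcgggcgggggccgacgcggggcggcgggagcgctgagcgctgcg
Irs2: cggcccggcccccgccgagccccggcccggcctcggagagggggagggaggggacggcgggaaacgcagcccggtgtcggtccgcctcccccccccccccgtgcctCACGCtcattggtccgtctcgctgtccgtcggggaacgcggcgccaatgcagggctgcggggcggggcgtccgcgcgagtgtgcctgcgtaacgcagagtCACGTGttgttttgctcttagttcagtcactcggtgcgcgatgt
Igfbp7: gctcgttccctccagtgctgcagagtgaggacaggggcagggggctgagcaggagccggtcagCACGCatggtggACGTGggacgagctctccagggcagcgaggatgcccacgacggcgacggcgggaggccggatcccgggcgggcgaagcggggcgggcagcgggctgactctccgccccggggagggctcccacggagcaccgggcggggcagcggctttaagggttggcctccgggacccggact
Igf2r: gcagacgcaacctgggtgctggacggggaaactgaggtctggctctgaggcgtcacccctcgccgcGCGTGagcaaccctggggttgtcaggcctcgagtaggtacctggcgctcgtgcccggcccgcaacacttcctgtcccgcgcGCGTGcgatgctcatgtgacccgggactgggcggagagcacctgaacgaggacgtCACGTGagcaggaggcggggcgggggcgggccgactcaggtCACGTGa
Igfbp3: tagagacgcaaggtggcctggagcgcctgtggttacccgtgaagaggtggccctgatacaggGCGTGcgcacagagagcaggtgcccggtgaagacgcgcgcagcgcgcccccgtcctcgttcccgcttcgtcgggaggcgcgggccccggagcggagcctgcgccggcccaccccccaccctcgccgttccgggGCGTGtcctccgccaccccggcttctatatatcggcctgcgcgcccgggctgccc
Igf2, distal start: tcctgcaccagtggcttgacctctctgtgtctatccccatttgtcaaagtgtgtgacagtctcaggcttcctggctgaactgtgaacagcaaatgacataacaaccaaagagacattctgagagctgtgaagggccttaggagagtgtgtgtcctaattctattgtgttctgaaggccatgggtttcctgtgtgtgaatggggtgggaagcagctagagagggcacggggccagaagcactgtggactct

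CpG dinucleotides, which cluster at many promoters, were frequent in 5 of these 6 stretches. Igf1r held 42 CpG in 250 bases, which placed it at the 99.2 percentile of the 32851 promoter windows in the RefSeq table. Irs2 held 34, Igfbp3 32, Igf2r 27 and Igfbp7 26, against a median of 6 over all windows (interquartile range 2 to 16). The distal Igf2 stretch held 1. CpG content alone did not sort the starts by acetylation: Igfbp3 and Igf2r, without H3K27ac, had more CpG than Igfbp7, which was acetylated. The other starts held fewer, among them 22 CpG at Igfbp4 and at the internal Igf2 start that H3K4me3 covered, 14 at the upstream start of Igfbp2, 10 at Igfbp5 and 5 at Igf1, although the Igf1 start held both marks.

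The hypoxia response core is the short sequence bound by hypoxia-inducible factors. It was found at 4 places before Igf2r, at 3 before Igf1r, at 2 each before Irs2, Igfbp7 and Igfbp3, and at 0 before the distal Igf2 start. Of the starts not printed, the upstream one of Igfbp2 held 3 places, and Igf1 and the H3K4me3-covered Igf2 start held 1 each. Igfbp4, Igfbp5, the second Igfbp2 start and the remaining Igf2 starts held 0. These 5 letters are common, and 38.6% of all promoter windows of this length held at least 1 match. Both forms of the core contain a CpG, and this share was not matched for CpG content. A match is only a description of the letters and says nothing of whether a factor was bound.

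The lists hold a position and a score for every peak but no reads, so sequencing depth and the spread between the 2 libraries of a group are unknown. All values below describe calls, and no difference between the oxygen levels could be tested. The lists held 15203 and 14832 H3K27ac peaks in hypoxia and normoxia and 14606 and 14603 H3K4me3 peaks. Boundaries fell in steps of 500 bp, and an interval called in several lists had identical ends. The lists are therefore taken to come from a single joint segmentation of the genome, and its intervals are called segments here. A run of a mark can be split where the other mark begins or ends, as in Igf1r. This bears on the counts and widths of segments. As a check of the cell type, 10 of 11 stromal marker genes had H3K27ac within 1000 bp of a start, among them Pdgfra, which encodes CD140a, and all 11 had it within 20000 bp of the gene. Eng was the exception, and Ly6a, which encodes Sca-1, had H3K27ac without H3K4me3 at its start. Of 7 blood, 4 endothelial and 3 epithelial marker genes, 0 had H3K27ac at a start, Ptprc (CD45) included. Within 20000 bp of the gene, however, 2 blood, 1 endothelial and 2 epithelial genes had some H3K27ac. H3K4me3 lay at a start in 2, 1 and 2 genes of these lists. The labels call the cells bone-marrow MSCs and the methods describe isolation from bone.

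The first question was how the marks are laid out over the family. The 10 windows held 27 distinct segments, 17 with H3K27ac and 16 with H3K4me3, covering 177 kb and 51.5 kb. Both marks were called on 6 segments, H3K27ac alone on 11 and H3K4me3 alone on 10. In every window the same segments were called in hypoxia and in normoxia, so each count and width stands for both oxygen levels.

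**Figure D1:**
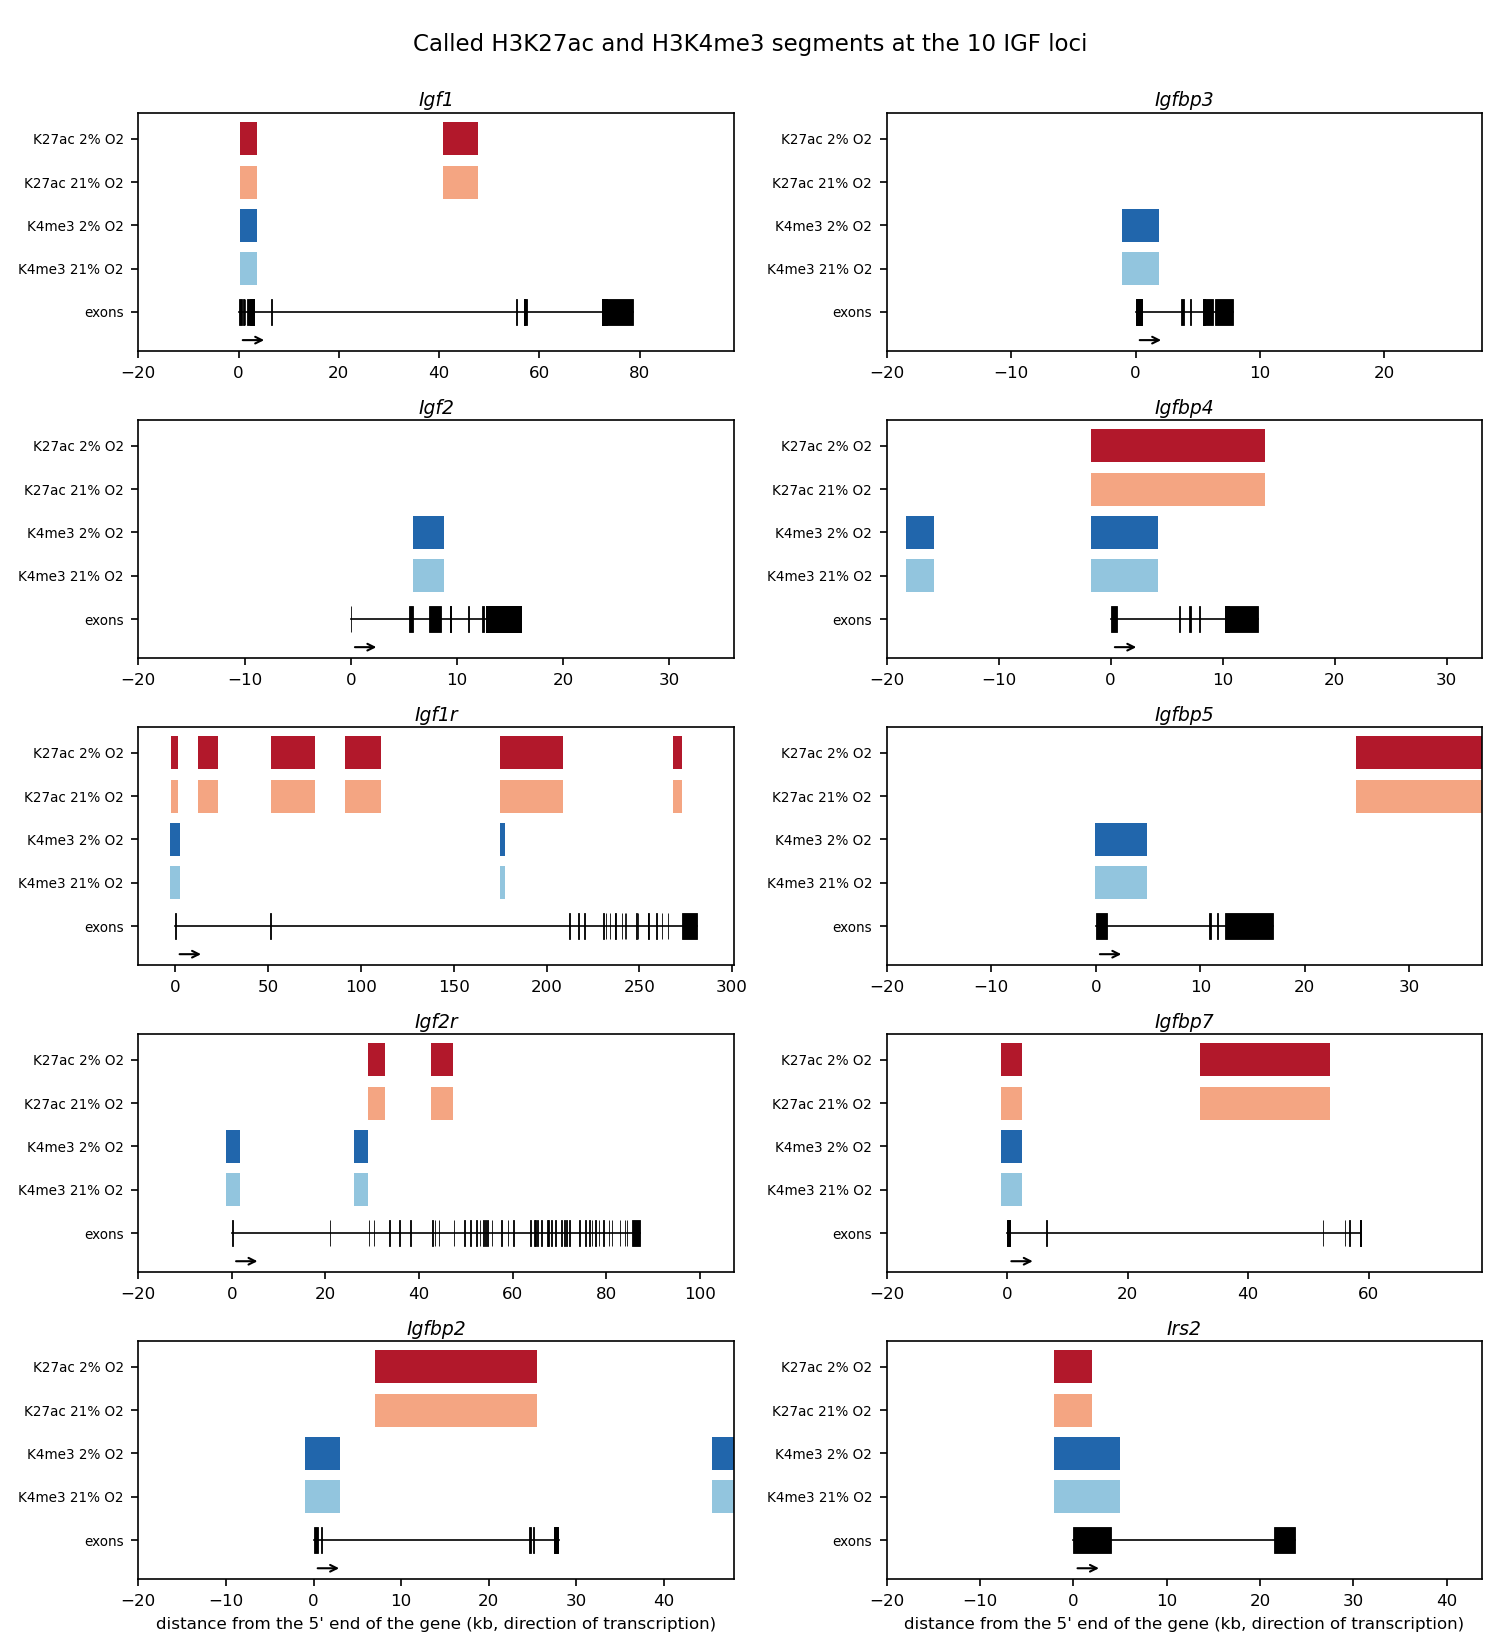
Segments called at each of the 10 loci, plotted as distance from the 5′ end of the gene in kb in the direction of transcription, with 1 row per list (H3K27ac in reds, H3K4me3 in blues, at 2% and 21% oxygen) and the exons of all annotated transcripts in black. The panels have different horizontal scales, and touching segments are drawn without a gap. The rows of a mark are the same at both oxygen levels in all 10 panels, and Igf1r carries the most H3K27ac.

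H3K4me3 lay within 1000 bp of an annotated start in 10 of 10 genes, while 58.9% of all protein-coding genes had such a call. H3K27ac lay there in 5 of 10, Igf1, Igf1r, Igfbp4, Igfbp7 and Irs2, beside 37.6% of all genes. The combination of both marks at a start at both oxygen levels was found in 7864 genes in all (35.8%), and that of H3K4me3 without H3K27ac in 4910 (22.4%). Some H3K27ac was found in the windows of 8 of 10 genes, against 55% of all genes, and Igf2 and Igfbp3 had none.

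The amount of H3K27ac differed widely between members. The median was 11.28 kb per window, beside 2.5 kb over all protein-coding genes. Igf1r had 95.5 kb, Igfbp7 25 kb, Igfbp2 18.5 kb, Igfbp4 15.5 kb, Igfbp5 12.1 kb (counted up to the edge of its window), Igf1 10.5 kb, Igf2r 8 kb and Irs2 4 kb. Igf1r alone held 7 of the 17 H3K27ac segments and 54% of the acetylated bases. Long genes have long windows, and Igf1r, with 280842 bp, was at the 97.2 percentile of gene length, so the share of the gene body was read too. By that measure the order changed: H3K27ac covered 100% of Igfbp4, 66.1% of Igfbp2, 40.9% of Igfbp7, 33.2% of Igf1r, 13.3% of Igf1, 9.17% of Igf2r and 8.23% of Irs2, while the body of Igfbp5 had none.

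**Figure D2:**
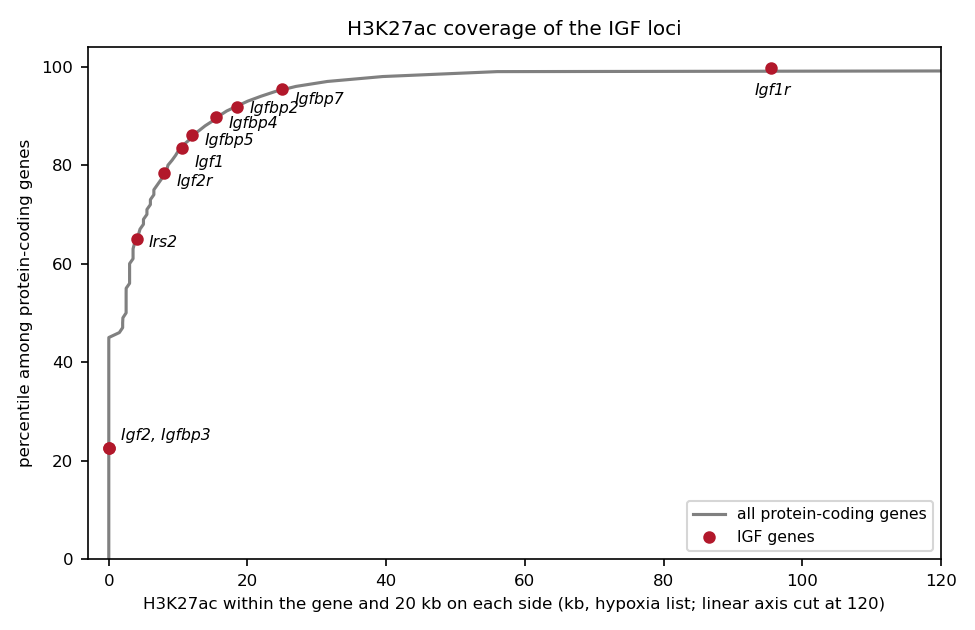
Length of H3K27ac in the window of each gene (kb, horizontal) against its percentile among protein-coding genes (vertical), hypoxia list. The grey line is the distribution over all 21938 genes, and the red points are the 10 IGF genes, from Igf2 and Igfbp3 at 0 kb to Igf1r at 95.5 kb and the 99.7 percentile.

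Among the ligands, Igf1 held both marks and Igf2 held H3K4me3 alone. Igf1 (chr10:87858265-87937042, plus strand) carried a segment of 3500 bp with both marks, chr10:87858501-87862000, which covered 6 of the 7 annotated starts of the gene and its exon 1 (exons are numbered along the transcript with the longest coding sequence). A second H3K27ac segment of 7000 bp lay within an intron, between 40736 and 47735 bp from the 5′ end, where no exon and no start is annotated and CpG was sparse (6.86 per kb). Only these segments were called over the 78778 bp of the gene and its flanks.

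Igf2 (chr7:142650766-142666816, minus strand) is imprinted and expressed mainly from the paternal allele. It has 5 annotated starts, and the only H3K4me3 segment of the window, chr7:142658001-142661000, covered 1 of them, and 4 of the 5, the covered start included, lay within 1000 bp of it. This segment of 3000 bp was rich in CpG (73.3 per kb), lay 5816 to 8815 bp inside the gene and also holds a start of the antisense gene Igf2os. The distal start printed above had neither mark. No H3K27ac was called in the gene or within 20000 bp of it at either oxygen level. Its neighbour H19, an imprinted gene expressed from the maternal allele, had no mark at its start and no H3K27ac in its own window.

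The receptors were marked differently from each other. Igf1r (chr7:67952827-68233668, plus strand) carried both marks at its start, on chr7:67950501-67954000, a segment of 3500 bp with 97.4 CpG per kb. H3K4me3 continued alone for 500 bp upstream and for 1500 bp downstream of it. Inside the gene, 5 further H3K27ac segments without H3K4me3 were called, of 10500, 23500, 19500, 31000 and 5000 bp, and the segment of 31000 bp was at the 98.5 percentile of width in its list. None of them touched an exon of the gene, which has 21.

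An intronic segment of Igf1r carried both marks far from the annotated start. It was chr7:68128001-68130500, a stretch of 2500 bp between 175174 and 177673 bp from the 5′ end, and it touched the segment of 31000 bp. No transcript of any gene in the annotation used starts there. It held 28.4 CpG per kb, above the 11 segments with H3K27ac alone (5.71 to 17.4 per kb) and below the median of 38.3 over all 7475 segments with both marks. The 300 bases of this segment with the most CpG, chr7:68129198-68129497 on the plus strand, held 15 CpG and 1 place with the hypoxia core, again in capitals.
Igf1r intron: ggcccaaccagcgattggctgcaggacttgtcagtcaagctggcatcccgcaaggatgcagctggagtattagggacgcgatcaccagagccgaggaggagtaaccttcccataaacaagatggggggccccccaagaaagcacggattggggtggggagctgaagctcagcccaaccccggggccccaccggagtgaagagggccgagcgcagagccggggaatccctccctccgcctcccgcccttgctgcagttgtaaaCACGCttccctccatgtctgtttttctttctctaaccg

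Igf2r (chr17:12682406-12769664, minus strand) is imprinted in mice and expressed mainly from the maternal allele. H3K4me3 was called at its start, on chr17:12768001-12771000, without H3K27ac. A second H3K4me3 segment of 3000 bp, chr17:12740501-12743500, lay in an intron and holds the start of Airn, the antisense RNA expressed from the paternal allele. H3K27ac touched that segment from its downstream side in the direction of Igf2r, on chr17:12737001-12740500 over exons 3 and 4, and a further H3K27ac segment of 4500 bp covered exons 8 to 10 of 48. The list scores of these H3K27ac segments were low, 63 and 68 in hypoxia and 61 and 72 in normoxia, where the list medians were 111 and 102. Reads from the maternal and paternal alleles are not separated in the lists, so the allele of either mark is unknown.

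The binding proteins fell into those with and without acetylation at the start. Igfbp4 (chr11:99041244-99054392, plus strand), which inhibits IGF action until it is cleaved by PAPP-A, was acetylated from end to end. A segment of 6000 bp with both marks, chr11:99039501-99045500, covered the start and exon 1, and H3K27ac continued for 9500 bp over exons 2 to 4 and an internal start. The H3K4me3 score at the start was 1000, the ceiling of the list, which 2065 peaks reached. The other H3K4me3 segment of the window lies at the start of Top2a.

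Igfbp7 (chr5:77349240-77408041, minus strand), which binds IGFs weakly compared with the other family members, held both marks on 3500 bp at its start, chr5:77405501-77409000. A broad H3K27ac segment of 21500 bp, chr5:77354501-77376000, lay in the distal part of the gene, between 32041 and 53540 bp from the 5′ end, and crossed exon 3 of 6. Igfbp3 (chr11:7206086-7213923, minus strand), the main carrier of IGFs in blood, had H3K4me3 alone on 3000 bp over its start, with 60 CpG per kb. No H3K27ac was called within 20000 bp of it, and its neighbour Igfbp1 had no mark at its start.

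Igfbp2 and Igfbp5 lie tail to tail on chromosome 1, with 5457 bp between them, and shared their acetylation. Igfbp2 (chr1:72824503-72852474, plus strand) had 4000 bp of H3K4me3 at its start, and Igfbp5 (chr1:72857932-72874884, minus strand), a binding protein abundant in bone, had 5000 bp at its own. Neither start was acetylated. The H3K27ac segment of both windows was chr1:72831501-72850000, 18500 bp long, inside Igfbp2 from 6998 to 25497 bp from its 5′ end and beyond the 3′ end of Igfbp5. It was counted once among the 17, and the lists do not say which gene it acts on, if any.

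Irs2 (chr8:10984681-11008458, minus strand), which couples the insulin and IGF1 receptors to PI3K, held both marks on chr8:11006501-11010500. This segment of 4000 bp had 94 CpG per kb and also holds a start of 9530052E02Rik. H3K4me3 alone ran on for 3000 bp into the gene, with a score of 58, which was at the 1.99 percentile of its list and the lowest among the 16 H3K4me3 segments here. No H3K27ac was called elsewhere in the window.

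Segments with H3K27ac alone had a median width of 10500 bp (3500 to 31000 bp, 11 segments), beside 5500 bp over all 7946 such segments in the genome. Igf1r held 5 of the 11, the widest included, and those of 3500, 4500 and 5000 bp were below the genome median. All 11 were taken by any overlap with a window, which favours wide segments. CpG ran from 5.71 to 17.4 per kb with a median of 12.7, and 8 of the 11 were above the median of 10.5 over all such segments, 5 of them above its upper quartile of 13.4, while 2 were below its lower quartile of 7.87. GC content ran from 40.9% to 50.7%, around the class median of 45.3%. Of the 6 segments with both marks, those at the Igf1r and Irs2 starts were above the upper quartile of their class, 47.5 per kb, and 3 were below its lower quartile of 30.7, at the Igf1 start (18), the Igfbp4 start (28.2) and in the Igf1r intron (28.4). Of the 10 with H3K4me3 alone, Igf2 and Igfbp3 were above the upper quartile of 46 and 1, downstream of the Igf1r start with 22 per kb, was below the lower quartile of 22.5.

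**Figure D3:**
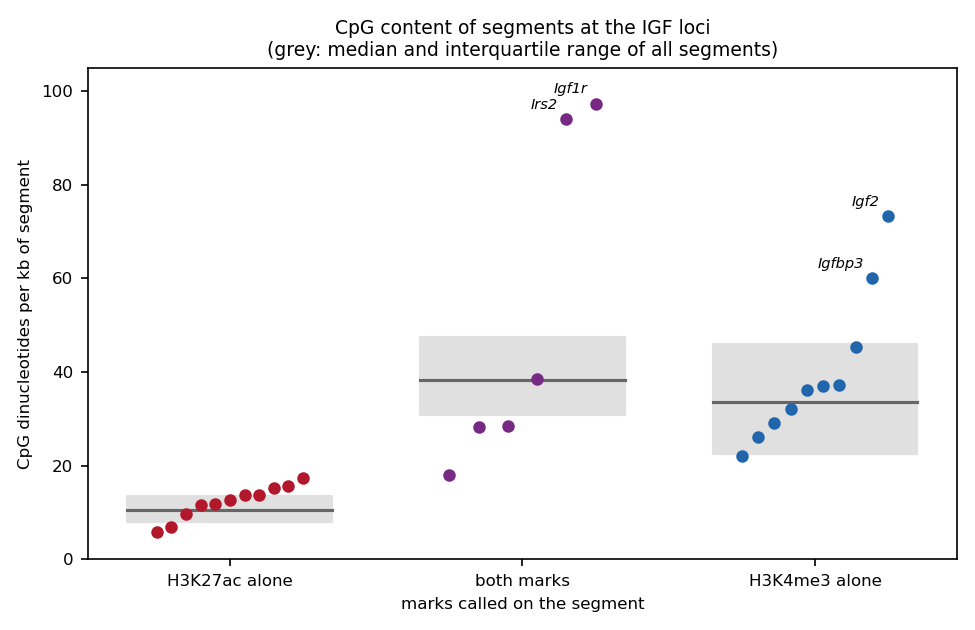
CpG dinucleotides per kb (vertical) in the 27 distinct segments of the IGF loci (points), by the marks called on them. Grey bands and lines give the interquartile range and median of all segments of the same class in the genome. All 11 segments with H3K27ac alone lie at or under 17.4 per kb, and Igf1r, Irs2, Igf2 and Igfbp3 are the points above 50.

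The next comparison was between the oxygen levels. A segment was called condition-specific, either hypoxia-only or normoxia-only, when no base of it was covered by that mark in the opposite oxygen condition. Of the 17 H3K27ac segments of the family 0 were condition-specific, and 0 of 10 genes had one. A limit of 3 counts would allow up to 17.6% of segments and 30% of genes if these were independent draws. They are not, since 7 of the 17 segments lie in Igf1r and the genes were listed by name, so the limits only show how small the counts are. Across the genome 3.87% of the hypoxia peaks and 1.47% of the normoxia peaks were condition-specific, and 5.81% of protein-coding genes, or 10.5% of those with any H3K27ac in the window, had such a segment. A count of 0 among so few segments and genes does not set the family apart from this background. For H3K4me3 the count was 0 of 16, beside 0.0411% and 0.0205% of peaks in hypoxia and normoxia.

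The nearest condition-specific H3K27ac segment lay outside all 10 windows. It was closest for Igfbp7, at 37.74 kb, where a hypoxia-only segment of 2000 bp with a score of 57 covered the start of the neighbouring gene Noa1. For Irs2 the distance was 54.681 kb, to a hypoxia-only segment of 9000 bp with a score of 54, chr8:10921001-10930000, whose nearest protein-coding start was that of Irs2 itself, 78458 bp away. For Igfbp4 it was 69.244 kb, near Rara. The other distances ran from 414.406 kb at Igf2r to 5722.46 kb at Igf1.

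The scores of the shared H3K27ac segments were then set side by side. This score is the authors' own value for each peak, from 50 to 160 or at 1000, and is taken here to rise with the confidence of the call, since its definition is not given in the sources used here. It is not a read count, and a difference between lists has no replicate error. H3K4me3 scores were identical in hypoxia and normoxia at all 14600 shared segments of the genome, the 16 of this family included, so they carry no comparison of the oxygen levels.

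At 3 acetylated starts the H3K27ac score was lower by 39 or more in the normoxia list. The Igfbp7 start scored 123 in hypoxia and 69 in normoxia, lower by 54. The Igf1 start scored 110 and 67, lower by 43, and the Igfbp4 start 135 and 96, lower by 39. These differences were at the 0.862, 2.06 and 2.8 percentile of the 11015 shared segments that scored below 1000 in both lists, where the median difference was 0 and the median scores 93 and 87. Among the 4658 of these with both marks, the class to which all 3 belong, they were at the 1.51, 3.32 and 4.45 percentile. The intronic segment of Igf1r with both marks scored 115 and 94, lower by 21, at the 10.7 percentile of all and the 13.3 of its class.

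The other acetylated starts scored alike in both lists. Irs2 scored 127 in both lists, and Igf1r scored 1000 in both, the highest value, so a difference there could not be seen. Restricted to segments with both marks, the family had 4 of 6 with a higher score in hypoxia, 2 equal and 0 higher in normoxia, while in the genome 35.4% of 7276 such segments were higher in hypoxia, 58.5% equal and 6.18% higher in normoxia.

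Among the 11 segments with H3K27ac alone, the 7 that scored below 1000 in both lists differed by at most 8. They were Igf1 (71 in hypoxia and 63 in normoxia), the 3′ segment of Igf1r (105 and 113), both of Igf2r, Igfbp2 (71 and 69), the second of Igfbp4 (69 and 66) and the broad one of Igfbp7 (126 and 122). In Igf1r the segment of 19500 bp scored 108 in hypoxia and 1000 in normoxia, and that of 31000 bp scored 1000 in hypoxia and 137 in normoxia. Thus acetylated stretches of the same gene differed in opposite directions, and the step from under 160 to 1000 has no stated size. The segments of 10500 and 23500 bp were at 1000 in both lists.

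**Figure D4:**
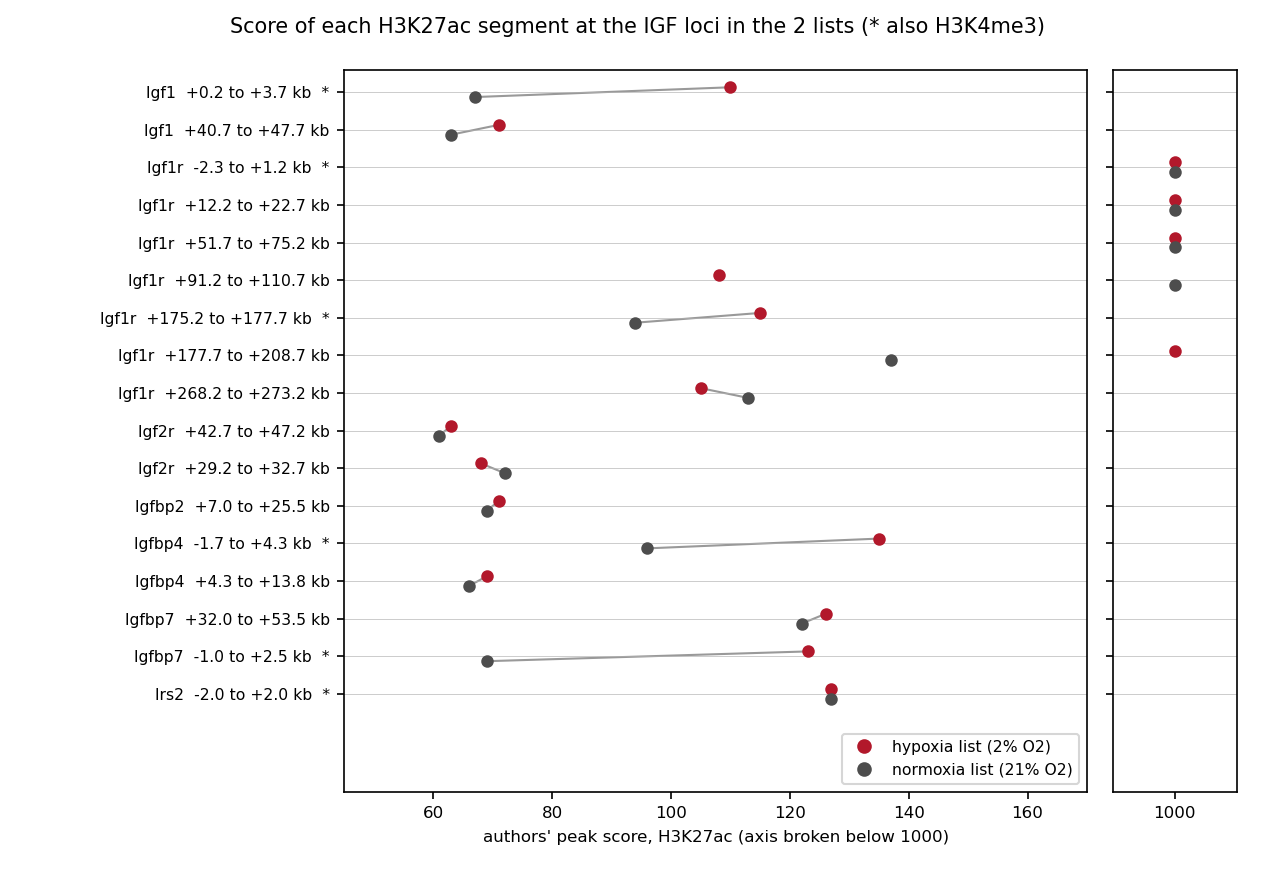
Authors' peak score (horizontal, with the axis broken below 1000) of the 17 H3K27ac segments in the hypoxia list (red) and the normoxia list (grey), each named by its gene and its distance from the 5′ end in kb, with an asterisk where H3K4me3 was called too. Grey lines join pairs below 1000 in both lists. The longest lines are those of Igfbp7, Igf1 and Igfbp4 at their starts, and the pair of Igf1r segments with a single point in each panel differ in opposite directions.

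Over the whole family 10 of 17 segments had the higher score in hypoxia (58.8%), 4 were equal and 3 were higher in normoxia, beside 39.9%, 43.6% and 16.6% of the 14614 shared segments of the genome. The family's count rests on few segments of only 8 windows. The hypoxia list scores higher as a whole, and by percentile within each list the family split into 8 higher in hypoxia and 9 higher in normoxia (47.1% and 52.9%), among the latter the 3 segments at 1000 in both lists. In the genome the same measure gave 30.3% higher in hypoxia and 69.7% higher in normoxia. Equal scores can count as higher in normoxia here, since 1000 lies at the 88.9 percentile in hypoxia and the 90.6 in normoxia. In the genome 43.6% of the shared segments scored equally, 2575 of them at 1000 in both lists. The 69.7% is therefore not a share of segments that scored higher in normoxia. By percentile within each list the Igfbp7, Igf1 and Igfbp4 starts, whose scores were not equal, still stood lower in normoxia. They went from the 55.7 to the 23.4, from the 49.4 to the 21.5 and from the 71.7 to the 45.9 percentile.

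To place the members in their pathway, 46 further genes were read in the same way. Of these, 36 had H3K4me3 at a start, 28 had H3K27ac at a start, 34 had H3K27ac in the window and 10 had no mark at a start. The shares over all protein-coding genes were 58.9%, 37.6%, 55% and 39.9%, in that order. The 46 include H19 and Airn, which are not protein-coding. The PI3K-AKT branch, which carries the signal inside the cell, was marked most fully, with H3K4me3 at 20 of 20 starts and H3K27ac at 17 of 20. Pik3cb, Foxo4 and Mtor were the genes of this list without acetylation at a start.

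Upstream of it a smaller part of the genes was marked. Of 12 genes of the insulin family, receptors and adaptors, 7 had H3K4me3 and 6 had H3K27ac at a start. Over all protein-coding genes these shares were 58.9% and 37.6%. Irs1, the sister of Irs2, held 65 kb of H3K27ac, against 4 kb at Irs2, and the insulin receptor Insr had H3K4me3 without H3K27ac at its start, unlike Igf1r. The insulin genes Ins1 and Ins2 had neither mark at a start.

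Of 9 genes that set IGF availability, 5 had H3K4me3 and 3 had H3K27ac at a start, which is near the shares over all protein-coding genes. Pappa, whose protease cleaves IGFBP4, and Igfbp6, which prefers IGF2, held both marks. Pappa2, a relative of Pappa, had no mark at a start and yet 80 kb of H3K27ac in its window. The stanniocalcins Stc1 and Stc2, which inhibit these proteases, had H3K4me3 alone. Of 5 genes for IGF2 RNA binding and imprinting, 4 had H3K4me3 and 2 had H3K27ac at a start, namely Igf2bp2 and Airn, the latter through the segment that adjoins its start. The shares over all protein-coding genes were 58.9% and 37.6%.

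**Figure D5:**
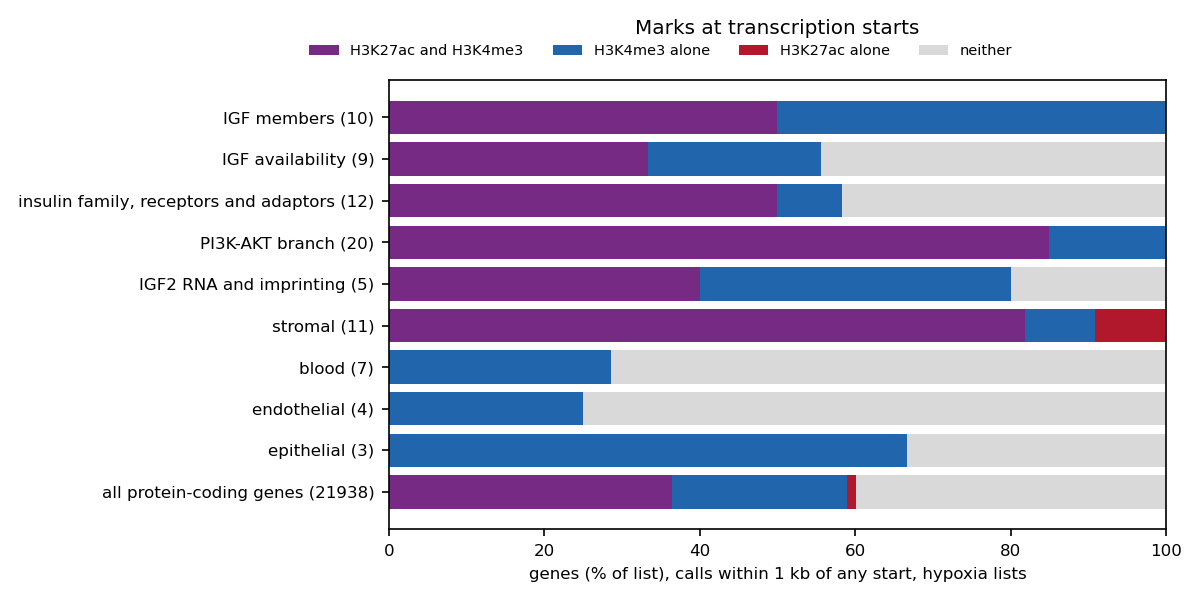
Percent of genes with both marks, H3K4me3 alone, H3K27ac alone or neither within 1000 bp of any annotated start (horizontal, hypoxia lists), for the 10 IGF genes, the 4 pathway lists, the 4 marker lists and all 21938 protein-coding genes, with the number of genes in brackets. The IGF genes split into 50% with both marks and 50% with H3K4me3 alone, the PI3K-AKT branch has 85% with both, and 39.9% of all genes have neither.

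Condition-specific H3K27ac was called in the windows of 4 of the 46 pathway genes, 34 of which had any H3K27ac there. In the genome 5.81% of all protein-coding genes had some in either direction, or 10.5% of those with any H3K27ac in the window. All 4 cases were hypoxia-only, the more frequent kind in the genome, with 589 peaks against 218 normoxia-only. A count of 4 does not set these genes apart from this background. Htra1, which encodes a secreted protease that cleaves IGF binding proteins, had a hypoxia-only segment of 3000 bp over its start. H3K4me3 was called there at both oxygen levels. For the adaptor gene Shc1 it was a segment of 13000 bp, 7943 bp from the nearest start and outside the gene, which also holds the start of Lenep. Gab1, another adaptor gene, had 2500 bp inside the gene, 97996 bp from its nearest start, and Akt1 had 1000 bp outside the gene, 1225 bp from a start. Their scores were low, 50, 54, 51 and 62 in that order, in a list with 50 as its lowest value. No pathway gene had condition-specific H3K4me3.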

How the data were processed

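ChIP-seq libraries were mapped by the authors to mm10 with bowtie2, duplicates were removed with Picard, and chromstaR, a hidden Markov model over genomic windows, called peaks in differential mode between the oxygen levels. Versions are not given in the sources used here. A model fitted jointly to both oxygen levels can assign them the same state, which bears on how many differences are called. The deposited values are a score for each peak, which the authors made from both libraries of a group.

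Peaks were joined to the GENCODE M21 basic annotation and the GRCm38.p6 genome with Python 3.11.15, pandas 2.3.3 and pyfaidx 0.9.0.4, and the overlap code was tested on simulated intervals. Any shared base counted as overlap. Promoter sequences came from the RefSeq table of the same assembly, where 14 windows matched the 10 genes. The 10 genes, the pathway lists and the marker lists were chosen with earlier results of these data known, and all 10 genes are described. Of pathway genes, those named are the ones with condition-specific H3K27ac and examples for each list chosen after their calls were seen. Each group had a single list, so no test was run. Input libraries and reads were not analysed here. Alternatives were other flanks and start windows, low scores left out, segments joined and a stricter definition of condition-specific. Percentiles of scores within each list were added after the data were seen.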

Additional observations from a re-analysis of the deposited data

How the results depend on the processing

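Of 17 alternatives computed, 16 gave a count within 1.5 times the one reported. Some of these could not have moved. With 0 condition-specific segments reported, gene bodies alone, the stricter definition and leaving out low scores could only return 0. A wider start window could not lower the number of genes with H3K4me3. The exception was the flank: with 50000 bp on each side, 1 condition-specific H3K27ac segment entered, the hypoxia-only one at the start of Noa1 in the window of Igfbp7, where 0 were found with 20000 bp. H3K27ac segments numbered 17 in gene bodies alone, 22 with 50000 bp, 13 without the lowest-scoring 25% and 15 once joined. H3K4me3 segments numbered 14, 18, 15 and 13. Percentiles of scores within each list are among the 16, with 8 segments higher in hypoxia where 10 were by score. The balance changed, however. By score 3 segments were higher in normoxia, and by percentile 9 were, among which equal scores can count. Taking the 5′ end of the gene as its only start left 9 genes with H3K4me3, since Igf2 was lost. No paired analysis was possible because a single list stands for both libraries of each group, and leaving out a library could not be done for the same reason. Depth and input signal are unknown.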
